A study of Mus musculus with 4 samples.

Results

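Nos2-expressing macrophages are macrophages in which transcripts of Nos2, the inducible nitric oxide synthase, were counted. They were chosen by a rule on raw counts: at least 200 genes, at most 10% mitochondrial UMIs (unique molecular identifiers, each taken as 1 captured RNA molecule), 5 or more UMIs of the myeloid genes Lyz2, Csf1r and Cd68 together, at most 1 UMI of the microglial genes P2ry12, Tmem119 and Sall1 together, at most 1 UMI of the T cell genes Cd3d, Cd3e and Cd3g together, none of the dendritic cell gene Flt3 or the neutrophil gene Retnlg, and at least 2 UMIs of Nos2. The rule took 2521 of 26014 filtered cells. Of these, 2160 (85.7%) lay in 1 library, that of anti-PD1-treated wild-type mice. The levels of these 12 genes are set by the rule and are given as a description.

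The study sorted live immune cells (CD45.2+, 7-AAD-) from mouse brains carrying GL261, a mouse glioma line injected into the brain, and sequenced them as single cells. Each of 4 groups had 1 library. The untreated groups, WT and IFNaR-/- (KO, mice that lack the receptor for type I interferons), were sorted on day 20 after injection. The anti-PD1 groups, WT and IFNaR-/-, received 200 ug of an antibody against the T cell checkpoint receptor PD-1 into the peritoneum on days 7, 11, 15 and 19 and were sorted on day 25. Suspensions were pooled before the sort, and the labels do not say how many mice each pool held. In the anti-PD1 groups CD3+ and CD3- cells were brought to a 1:1 ratio, so shares below are of macrophages and not of all cells. The filtered cells did not show this ratio. T cells (3 or more Cd3 UMIs, at most 1 UMI of the myeloid genes) were 363 of 9464 cells in anti-PD1 WT and 451 of 8476 in anti-PD1 KO. With 1 library per group there is no spread between replicates. No test across samples could be made, and every interval below is a 95% interval that covers counting error only.

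Macrophages exposed to interferon-gamma together with microbial or cytokine signals through NF-kB switch on Nos2, which makes nitric oxide from arginine with the cofactor tetrahydrobiopterin. Arginase 1 (Arg1) uses the same substrate and makes ornithine and urea, and the transporter Slc7a2 brings arginine into the cell. In tumours, macrophages carrying either enzyme can consume arginine that T cells need, and the nitric oxide product can affect both tumour and T cells.

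The libraries held 3705 to 9530 barcodes and 32410040 to 94732545 UMIs. In the anti-PD1 WT library, UMIs of T cell receptor variable segments amounted to 1.91 times those of the constant genes Trac, Trbc1 and Trbc2, against 0.0151 to 0.0962 in the other libraries, although the labels name 1 kit for all. That library therefore differs from the others in more than treatment, and between libraries genotype, treatment, day and library cannot be told apart. The untreated and anti-PD1 libraries also differ in the Cell Ranger version that made the counts. The receptor subunit genes Ifnar1 and Ifnar2 were counted in the members of every library (Ifnar1 at 184, 72.8, 83.1 and 137 CPM, counts per 1000000 UMIs, in untreated WT, untreated KO, anti-PD1 WT and anti-PD1 KO). The labels do not say which part of which subunit was deleted, so these counts check nothing. The anti-PD1 libraries shared 95 barcode sequences (19 of WT members and 4 of KO members), other pairs at most 3, and without those barcodes the shares of members were 35.9% and 6.19%. For these reasons members were compared first with macrophages of the same library that passed the rest of the rule and held 0 Nos2 UMIs, called Nos2-zero macrophages. Nos2-zero macrophages numbered 3209 and 4253 in the anti-PD1 WT and KO libraries and 1636 and 848 in the untreated WT and KO libraries.

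Members made up 3.05% of rule-defined macrophages in untreated WT (53 of 1737, interval 2.29% to 3.97%) and 1.71% in untreated KO (15 of 878, 0.959% to 2.80%). They made up 35.9% in anti-PD1 WT (2160 of 6023, 34.7% to 37.1%) and 6.21% in anti-PD1 KO (293 of 4715, 5.54% to 6.94%). The anti-PD1 WT share stood apart from the other 3, and the untreated pair had overlapping intervals. Depth differed between the libraries, and when each cell was thinned to 2000 UMIs and the rule applied again the shares were 0.768%, 0.289%, 11.6% and 1.92% in the same order. Applying the rule again let in cells that it excludes at full depth (1276 in anti-PD1 WT). Over the macrophages chosen at full depth, the thinned shares were 0.952%, 0.357%, 13.6% and 2.58%. T cells of the same libraries, which should lack Nos2, held 2 or more Nos2 UMIs in 0.157%, 0.168%, 0.275% and 0.443% of cells, at median depths of 8724, 9478, 4662 and 3428 UMIs against 8007, 11460, 10119.5 and 9381 in members. The order of the libraries was the same with and without thinning. The 15 members of untreated KO are under the 50 cells set for a comparison over all genes, and levels of named genes are given for them.

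**Figure D1:**
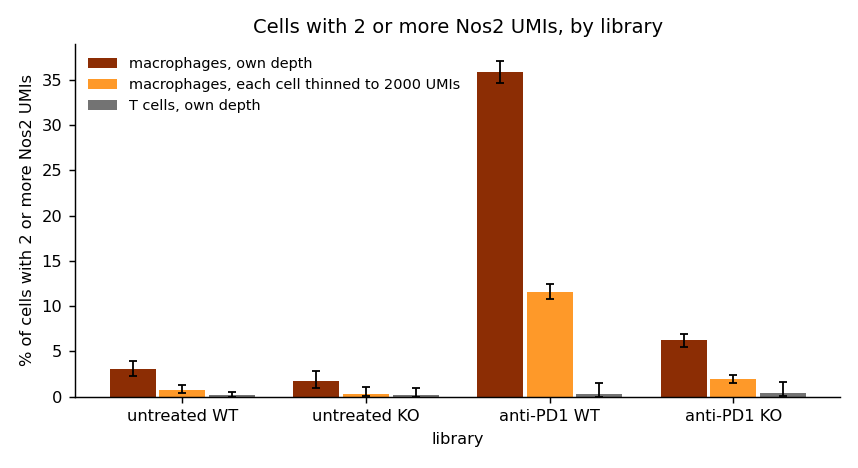
Percent of cells with 2 or more Nos2 UMIs in each library: rule-defined macrophages at their own depth (dark), macrophages by the rule applied again after thinning each cell to 2000 UMIs (light) and T cells (grey), with exact 95% binomial intervals. The anti-PD1 WT macrophages reach 35.9% and the other libraries 1.71% to 6.21%, while T cells stay at or below 0.443%.

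The Nos2 signal itself differed between members. In anti-PD1 WT a member held a median of 5 Nos2 UMIs (quartiles 3 and 9, highest 88), in anti-PD1 KO 4 (2 and 7, highest 72) and in untreated WT 3 (2 and 4, highest 24). Summed over members, Nos2 stood at 616 CPM in anti-PD1 WT, 589 in anti-PD1 KO, 417 in untreated WT and 348 in untreated KO. Members held 77.5% of all Nos2 UMIs of the anti-PD1 WT library, 75.7% of those of anti-PD1 KO and 64.4% of those of untreated WT. Just outside the threshold, 654 macrophages of anti-PD1 WT held 1 Nos2 UMI, and just inside it 446 held 2. Of 2704 anti-PD1 WT cells with 2 or more Nos2 UMIs, 314 failed the rule on the microglial genes alone, 98 that on the T cell genes alone and 101 that on the myeloid genes alone. The microglial limit passed through a continuum, since 452 members held 1 UMI of those genes and 157 cells that met every other condition held 2.

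Checked against marker lists, the members carried macrophage and monocyte markers (12 of 12 present in both anti-PD1 libraries and 11 of 12 in untreated WT), whose summed level was 10289 CPM in anti-PD1 WT members and 10430 in Nos2-zero macrophages. T cell markers summed to 5.56 CPM in anti-PD1 WT members and 5.61 in their Nos2-zero macrophages, and NK cell markers to 1.78 and 5.54. In untreated WT the T cell sums were 110 and 88.6 CPM and the NK sums 178 and 86.7, so untreated members carried more lymphocyte RNA than treated ones (in untreated KO the T cell sums were 140 and 26.2 CPM and the NK sums 135 and 39.1), and its part in the results was not tested. Microglial markers stayed measurable (1781 against 2430 CPM in anti-PD1 WT and 1215 against 2925 in anti-PD1 KO), and conventional dendritic cell markers summed to 69.2 against 82.5 CPM in anti-PD1 WT. Neutrophil markers summed to 307 against 358 CPM in anti-PD1 WT (8 of 10 present in members) and to 152 against 144 in anti-PD1 KO (6 of 10), with S100a9 at 0 in both populations of both libraries. Scrublet marked 7.04% of anti-PD1 WT members as likely doublets, against 3.74% of their Nos2-zero macrophages, and 2.73% of anti-PD1 KO members against 4.21%. Cells above the 95th UMI percentile were 4.49% of anti-PD1 WT members against 1.68%, and 14.3% of anti-PD1 KO members against 3.72%.

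Of the other genes that mark these cells in the working label, Nrg1 was higher in members and Slfn4 was not. Nrg1 encodes neuregulin, a growth factor of the EGF family that binds ERBB receptors. It stood at 591 CPM in members against 305 in Nos2-zero macrophages of anti-PD1 WT, at 605 against 317 in anti-PD1 KO, at 100 against 68.8 in untreated WT and at 104 against 69.0 in untreated KO. The log2 ratios were 0.95 (0.91 to 0.99) in anti-PD1 WT, 0.93 (0.86 to 1.01) in anti-PD1 KO and 0.56 (0.10 to 0.96) in untreated WT, where it was -0.49 against Nos2-zero macrophages nearest to the members in UMIs. Nrg1 was thus just under 2-fold higher in members of both genotypes after anti-PD1, with nearly equal levels in WT and KO. Slfn4, a Schlafen family gene induced by type I interferon, was at 35.9 CPM in members against 52.9 in Nos2-zero macrophages of anti-PD1 WT and at 309 against 274 in untreated WT. In anti-PD1 KO it had 0 UMIs in members and 1 in Nos2-zero macrophages, and in untreated KO it stood at 5.20 against 0.943 CPM. Slfn4 was therefore near 0 in both KO libraries and did not mark members within a library. Nos2 lies at chr11:78920787-78960254 on the plus strand, Nrg1 at chr8:31814551-32884029 on the minus strand and Slfn4 at chr11:83175186-83190216 on the plus strand (GRCm38, GENCODE M21).

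The arginine pathway was measured through 19 listed genes with enough UMIs in anti-PD1 WT. Their median log2 ratio was -0.11, and 8 of 19 were higher in members, where 34.8% of all genes tested had a ratio above 1. The list thus did not move as a whole, while Slc7a2 and Arg1 were among its higher members and the other arginine transporter, Slc7a1, was not (log2 ratio -0.32). Slc7a2, the cationic amino acid transporter that supplies arginine, was at 323 against 103 CPM in anti-PD1 WT, 830 against 250 in anti-PD1 KO, 36.8 against 21.3 in untreated WT and 218 against 85.3 in untreated KO. Members were higher in all 4 libraries, by log2 ratios of 1.65 (1.59 to 1.72) in anti-PD1 WT and of 1.73 in anti-PD1 KO. In untreated WT the level rested on 18 UMIs in 8 of 53 members, of which 1 held 8, and the interval began at 0.01. Arg1 stood at 2262 against 1035 CPM in anti-PD1 WT and 3229 against 1954 in anti-PD1 KO. It was at 417 against 426 CPM in untreated WT and 801 against 951 in untreated KO, so members did not stand above other untreated macrophages at the CPM level. In untreated WT this depended on the cells compared, since the log2 ratio was -0.03 as counted, 0.52 with each cell at equal weight and 0.76 against Nos2-zero macrophages nearest in UMIs. Transcripts of the 2 enzymes that compete for arginine were counted in the same macrophages after anti-PD1, as the shares below show. This was not limited to treated libraries. In untreated WT 22 of 53 members held an Arg1 UMI at their own depth, against 403 of 1636 Nos2-zero macrophages.

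Ass1, argininosuccinate synthase, which rebuilds arginine from the citrulline that Nos2 releases, was higher in members everywhere: 645 against 402 CPM in anti-PD1 WT, 165 against 54.9 in anti-PD1 KO, 282 against 203 in untreated WT and 369 against 96.9 in untreated KO. Its partner Asl was at 26.6 against 26.7 CPM in anti-PD1 WT and 28.7 against 21.7 in anti-PD1 KO. Gch1, the entry enzyme of tetrahydrobiopterin synthesis, was at 118 against 81.7 CPM in anti-PD1 WT, 64.7 against 42.0 in anti-PD1 KO, 108 against 96.2 in untreated WT and 78.0 against 44.3 in untreated KO. Arg2, the mitochondrial arginase, was at 77.6 against 51.1 CPM in anti-PD1 WT and 44.9 against 41.7 in anti-PD1 KO. Sat1, which breaks down the polyamines made from ornithine, was lower in members of every library (436 against 643 CPM in anti-PD1 WT, 537 against 809 in anti-PD1 KO, 601 against 905 in untreated WT and 348 against 880 in untreated KO).

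Co-detection was read from cells thinned to 2000 UMIs, so that members and Nos2-zero macrophages had equal depth. Arg1 was found in 70.3% of anti-PD1 WT members against 44.2% of their Nos2-zero macrophages, and in 89.5% against 69.4% in anti-PD1 KO. Slc7a2 was found in 33.7% against 12.6% in anti-PD1 WT and in 61.3% against 25.0% in anti-PD1 KO, and Nrg1 in 48.1% against 29.9% and 51.2% against 25.4%. T cells thinned to the same depth, a measure of free RNA, held Arg1 in 4.07% (anti-PD1 WT) and 7.39% (anti-PD1 KO) of cells, Slc7a2 in 0.581% and 0.739%, and Nrg1 in 1.74% and 1.23%. The shares in members were above these backgrounds for all 3 genes. At their own depth, 81.7% of anti-PD1 WT members and 96.6% of anti-PD1 KO members held Arg1, against 57.4% and 76.6% of Nos2-zero macrophages and 6.61% and 14.2% of T cells.

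Over all genes, few were far apart within the anti-PD1 WT library. Of 11033 genes with at least 50 UMIs in the 2 groups, 88 (0.798%) were at least 2-fold higher in members and 258 (2.34%) at least 2-fold lower, in all 346 (3.14%). In anti-PD1 KO the counts were 260 of 10502 (2.48%) and 601 (5.72%), in all 861 (8.2%), and the larger lower side depended on the cells compared, as given below. In untreated WT they were 460 of 9434 (4.88%) and 548 (5.81%), in all 1008 (10.7%). The smaller groups give less precise ratios: in untreated WT the interval lay wholly beyond 2-fold for 42 genes (0.445%) on the higher and 14 (0.148%) on the lower side, against 49 (0.444%) and 97 (0.879%) in anti-PD1 WT. With TMM scaling 34.4% of the 2-fold genes of anti-PD1 WT were on the higher side, and with DESeq2 size factors 35.5%, against 25.4% by CPM. The scaling moved the median of all genes by less than 0.1 on the log2 scale in these comparisons.

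A set of genes was 2-fold apart in the same direction in all 3 libraries that had 50 or more members. Of 9102 genes tested in each, 16 were higher and 22 lower. This rule was chosen after the values were seen, and because it used these libraries the folds are a description. The untreated WT part depended on the processing. Of its 1008 2-fold genes, 186 were 2-fold apart after thinning, where 6352 genes were tested. Against Nos2-zero macrophages nearest in UMIs 60 were, of 2997 genes tested. How many of the genes below were among those was not computed. The 16 higher genes were Inhba, Upp1, Procr, Tnfrsf9, Sdc1, Fpr2, Slc7a11, Trem1, S100a8, Clec4d, Cd1d1, Smpdl3b, Pdpn, Cacna1d, Rgcc and Dcstamp. They include receptors that sense damage or microbes and amplify inflammation (Trem1, Fpr2, Clec4d) and the cystine importer Slc7a11.

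Inhba, which encodes the subunit of activin A, a TGF-beta family cytokine, was at 364 against 85.2 CPM in anti-PD1 WT, 134 against 17.9 in anti-PD1 KO, 162 against 41.4 in untreated WT and 135 against 42.0 in untreated KO. This was 4.27-fold, 7.46-fold and 3.93-fold higher in the first 3. Upp1, uridine phosphorylase, which releases ribose phosphate from uridine, was at 205 against 70.7 CPM in anti-PD1 WT, 41.6 against 7.37 in anti-PD1 KO, 102 against 37.4 in untreated WT and 198 against 17.8 in untreated KO. Procr, the endothelial protein C receptor, was at 103 against 37.5, 71.3 against 17.4, 133 against 25.8 and 57.2 against 15.8 CPM in the same order. In the first 3 libraries the direction was set by the choice of these genes. In untreated KO, which took no part in the choice, each of them was also higher in members.

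Tnfrsf9, the costimulatory receptor 4-1BB, was at 56.7 against 12.5 CPM in anti-PD1 WT and 36 against 5.25 in anti-PD1 KO, and at 14.3 against 7.23 in untreated WT. Slc7a11, which imports cystine for glutathione, was at 203 against 95, 192 against 69.3 and 376 against 183 CPM in the same libraries. Fpr2, a formyl peptide receptor, was at 61.1 against 20.9, 21.1 against 4.27 and 153 against 39.0 CPM. Trem1 was at 117 against 58.4, 21.1 against 8.04 and 89.9 against 21.7 CPM. The untreated KO library took no part in the choice of these genes. There 15 of the 16 were higher in the 15 members and S100a8 was lower, and for 11 of the 16, S100a8 among them, the interval excluded equality. The share of all genes higher in these 15 members was not computed, so the counts have no background beside them.

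**Figure D2:**
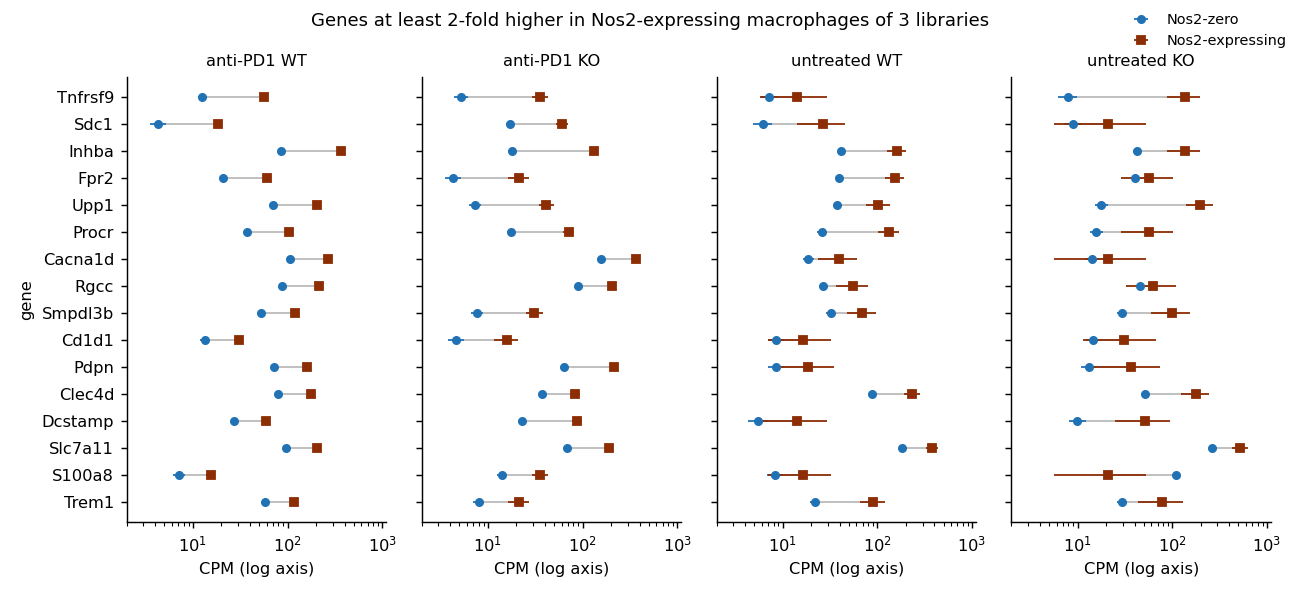
CPM (log axis) of the 16 genes at least 2-fold higher in members of 3 libraries, in Nos2-zero (circles) and Nos2-expressing macrophages (squares) of each library, with exact 95% Poisson intervals. In untreated KO, which was not used to choose them, 15 of 16 genes lie higher in members and S100a8 lies lower. No share of all genes was computed there.

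The 22 genes at least 2-fold lower in members of all 3 libraries included Cx3cr1, the fractalkine receptor of resident and patrolling cells, at 49.3 against 114 CPM in anti-PD1 WT, 58.8 against 306 in anti-PD1 KO, 71.5 against 208 in untreated WT and 67.6 against 191 in untreated KO. Lpl, lipoprotein lipase, was at 9.0 against 29.4, 48.5 against 252 and 4.09 against 22.9 CPM in the first 3, and the growth factor gene Csf1 at 6.72 against 25.1, 5.61 against 82.0 and 14.3 against 33.0 CPM. The untreated WT level of Lpl was 2 UMIs in 1 member. Members thus held less of several genes carried by microglia and lipid-handling macrophages. Others of the 22 mark dendritic or B cells (Cd209a, Ighm, Gpr183), and B cell markers summed to 6.64 against 26.1 CPM in anti-PD1 WT and 47.0 against 164 in untreated WT, whose part was not tested. In untreated KO 19 of the 22 were lower and 3 higher, but the 15 members held 0 UMIs for 12, and the interval excluded equality for only 5 of the 22. Here too no share of all genes stands beside the count.

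Between libraries with different cells, the 2-fold sets overlapped in part. Of 10276 genes tested in both anti-PD1 libraries, 64 were 2-fold higher in WT members and 250 in KO members, and 36 were shared, which is 56.2% of the first set and 14.4% of the second. On the lower side 153 were shared (68.9% of 222 and 31.3% of 489). Of the 64 WT genes, 58 had a ratio above 1 in KO and 6 below. Of all genes tested in anti-PD1 KO, 2.48% were 2-fold higher and 5.72% lower, and 44.2% had a ratio above 1. In untreated WT these shares were 4.88%, 5.81% and 52.7%. The untreated WT sets, which came from 53 members, overlapped less, and the part of counting error in this was not tested. Of the genes 2-fold higher in anti-PD1 KO and tested in both, 39 of 191 (20.4%) were so in untreated WT and 51 had the opposite direction, and on the lower side 53 of 282 (18.8%) were shared and 119 had the opposite direction. Against anti-PD1 WT, untreated WT shared 28 of 58 higher genes (48.3%) and 36 of 103 lower genes (35.0%).

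Gene groups were read from lists, with each list's median beside that of all genes (-0.08 in anti-PD1 WT). Hypoxia and glycolysis genes were the most uniform: 29 of 29 were higher in anti-PD1 WT members (median log2 ratio 0.46), 28 of 29 in anti-PD1 KO (0.69) and 28 of 28 in untreated WT (0.58), where 34.8%, 44.2% and 52.7% of all genes had a ratio above 1. Of them 1, 4 and 5 reached 2-fold. Ero1l, an oxidoreductase induced by low oxygen, was at 207 against 106 CPM in anti-PD1 WT, 330 against 117 in anti-PD1 KO and 137 against 61.0 in untreated WT. Ndrg1, a classic hypoxia marker, was at 71.3 against 38.5, 172 against 57.3 and 145 against 63.4 CPM, and Vegfa, which drives vessel growth, at 733 against 505, 549 against 322 and 503 against 231 CPM. Members were higher for all 3 in each of these libraries.

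Inflammatory cytokines and enzymes were higher in 18 of 20 genes in anti-PD1 WT (median 0.60) and in 14 of 17 in untreated WT (0.69), and in 11 of 18 in anti-PD1 KO (0.22). Il1b, the secreted pyrogen, was at 6357 against 4636 CPM in anti-PD1 WT, 2800 against 1916 in anti-PD1 KO and 3082 against 1852 in untreated WT. Il1a, its cell-associated relative, was at 443 against 200 CPM in anti-PD1 WT and 198 against 64.0 in untreated WT but at 81.2 against 99.4 in anti-PD1 KO. Sod2, the mitochondrial superoxide dismutase that NF-kB induces, was at 744 against 346, 394 against 160 and 511 against 258 CPM in anti-PD1 WT, anti-PD1 KO and untreated WT. The chemokine gene Cxcl2, which draws neutrophils, was at 1940 against 764 CPM in anti-PD1 WT. Acute-phase and complement genes had medians of 0.68 (11 of 14 higher), 0.88 (8 of 10) and 0.53 (8 of 9) in the same order. In anti-PD1 WT, Slpi, a secreted protease inhibitor, was at 314 against 81.4 CPM and Hp, haptoglobin, at 104 against 51.3.

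The IL-12 subunit gene Il12a had the log2 ratio 2.65 and the chemokine gene Cxcl3 2.46 in anti-PD1 WT. A small number of cells carried some of the secreted signals. In anti-PD1 WT 50 members (2.31%) held a UMI of Ccr7, a marker of migratory dendritic cells, and these 50 held 81.7% of the Ccl22, 12.9% of the Il12b and 2.5% of the Il12a UMIs of all members. The Ccl22 level of members therefore came mostly from cells with a dendritic cell marker, while the Il12a level did not. Similarly, all 68 UMIs of Klk1 came from 1 member.

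Tissue macrophage and lipid handling genes lay on the other side in the treated libraries. Of 20 tissue macrophage genes none was higher in anti-PD1 WT members (median -0.32; 2 of 20 were higher with either other scaling), and of 21 measured in anti-PD1 KO 2 were higher (-0.73; 3 with the other scalings). In untreated WT 8 of 19 were higher (-0.10), and the median was 0.32 against Nos2-zero macrophages nearest in UMIs. Lipid handling genes had medians of -0.52, -0.68 and 0.02 in the same order, with 4 of 20, 3 of 21 and 10 of 18 higher. Lysosome genes had medians nearer to that of all genes, -0.15, -0.31 and -0.10, with 3 of 19, 5 of 19 and 7 of 18 higher. Apoc1, an apolipoprotein, was at 10.2 against 48.7 CPM in anti-PD1 WT members, and Apoe, its abundant neighbour, at 11488 against 29004 in anti-PD1 KO. Gpnmb, a glycoprotein of lipid-laden macrophages, was at 237 against 488 CPM in anti-PD1 WT and 233 against 580 in anti-PD1 KO but 174 against 127 in untreated WT. Ctsd, the lysosomal protease cathepsin D, was at 1581 against 2584 CPM in anti-PD1 WT.

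Several other groups had medians near 0 by CPM in anti-PD1 WT, but how many of their genes were higher depended on the scaling. By CPM 34.8% of all genes had a ratio above 1. Interferon-stimulated genes had 20 of 39 higher (median 0.01; 26 and 27 of 39 with the other scalings), oxidative phosphorylation subunits 21 of 35 (0.01; 30 and 32 of 35), and MHC class II genes 2 of 11 (-0.04; 7 of 11 with either other scaling). MHC class I genes were slightly higher, in 17 of 19 (0.11). Cell cycle genes had a median of -0.29 in anti-PD1 WT (7 of 25 higher) and of 0.23 in anti-PD1 KO (20 of 25), a difference between libraries that was not tested.

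**Figure D3:**
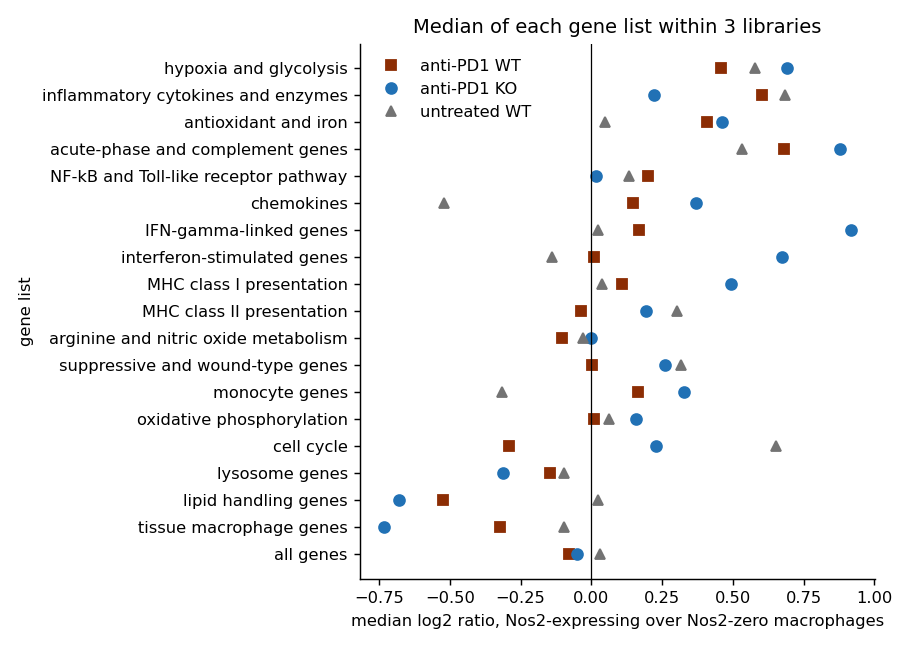
Median log2 ratio of Nos2-expressing to Nos2-zero macrophages for each gene list within anti-PD1 WT (squares), anti-PD1 KO (circles) and untreated WT (triangles); the bottom line holds all genes tested. Hypoxia and glycolysis genes lie at 0.46 to 0.69 in all 3, whereas interferon-stimulated genes lie at 0.67 in anti-PD1 KO and at 0.01 in anti-PD1 WT.

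Many anti-PD1 macrophages express Arg1. Members of anti-PD1 WT were therefore also set against 1141 Nos2-zero macrophages of that library with 5 or more Arg1 UMIs. Summed over cells, Arg1 was at 2263 CPM in this Arg1-high group against 2262 in members. Members had no Arg1 limit, and 1765 of 2160 held an Arg1 UMI, so single cells were not matched on Arg1. Of 10429 genes, 101 (0.968%) were at least 2-fold higher in members and 56 (0.537%) at least 2-fold lower, and 42.8% had a ratio above 1. Against the Arg1-high group the log2 ratio was 1.05 for Slc7a2 (323 against 156 CPM), 0.67 for Nrg1 (591 against 372) and 0.77 for Ass1. It was 1.69 for Inhba, 1.62 for Upp1, 1.79 for Procr, 1.91 for Tnfrsf9, 1.06 for Sod2 and 1.83 for Slpi. These named genes were thus also higher than in the Arg1-high group with its equal summed Arg1 level. Fewer genes were 2-fold lower than against all Nos2-zero macrophages (56 in place of 258). Hypoxia genes were higher in 29 of 29 (median 0.36), inflammatory genes in 19 of 20 (0.73) and tissue macrophage genes in none of 20 (-0.51). Gpnmb had the log2 ratio -1.11 and Ccl24, an eosinophil-drawing chemokine, -1.21.

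In the IFNaR-/- library after anti-PD1 the difference between members and Nos2-zero macrophages took in interferon-linked genes. Of 25 genes linked to interferon-gamma 23 were higher in KO members, 10 of them at least 2-fold, with a median of 0.92, against 19 of 25 and 0.17 in WT. Of 28 interferon-stimulated genes with enough UMIs (of 40 listed) 26 were higher, 9 of them at least 2-fold, with a median of 0.67. The other 12 listed genes did not reach the minimum, and the difference between the genotypes in these medians was not tested. MHC class I genes were higher in 19 of 19 (0.49).

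Gbp2, a guanylate-binding protein that attacks vacuoles of pathogens, was at 517 against 196 CPM in anti-PD1 KO and 490 against 356 in anti-PD1 WT. It was at 529 against 629 in untreated WT and 790 against 488 in untreated KO, so it was higher in members of 3 of the 4 libraries. Cxcl9, the chemokine that draws CXCR3+ T cells and answers mainly to interferon-gamma, was at 1507 against 535 CPM in anti-PD1 KO and 1006 against 732 in anti-PD1 WT. It was at 4019 against 1014 in untreated KO and 2120 against 1343 in untreated WT. Ccl5, another T cell chemokine, was at 3089 against 893 CPM in anti-PD1 KO, 6274 against 3906 in anti-PD1 WT, 1206 against 206 in untreated KO and 3691 against 1126 in untreated WT. Both chemokine genes were higher in the members of all 4 libraries. T and NK cells also make Ccl5, and their markers were higher in untreated members, as given above, which was not tested for Ccl5.

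Isg15, a ubiquitin-like protein conjugated to targets in the antiviral response, was at 174 against 64.2 CPM in anti-PD1 KO members and Nos2-zero macrophages, and at 1337 against 1232 in anti-PD1 WT. The KO members were thus above other KO macrophages (log2 ratio 1.44, 1.29 to 1.58) but below WT macrophages of either treatment. Irf7, a master regulator of the type I interferon response, was at 6.93 against 4.35 CPM in anti-PD1 KO, against 463 in WT members. Ly6a, the surface antigen Sca-1, was at 776 against 215 CPM in anti-PD1 KO and 2925 against 2526 in anti-PD1 WT. Cd274, which encodes the PD-1 ligand PD-L1, was at 343 against 200 CPM in anti-PD1 KO, 528 against 397 in anti-PD1 WT and 415 against 258 in untreated WT, and Pdcd1lg2, the other PD-1 ligand, at 290 against 120 in anti-PD1 KO. Both ligand genes were thus higher in KO members than in other KO macrophages.

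**Figure D4:**
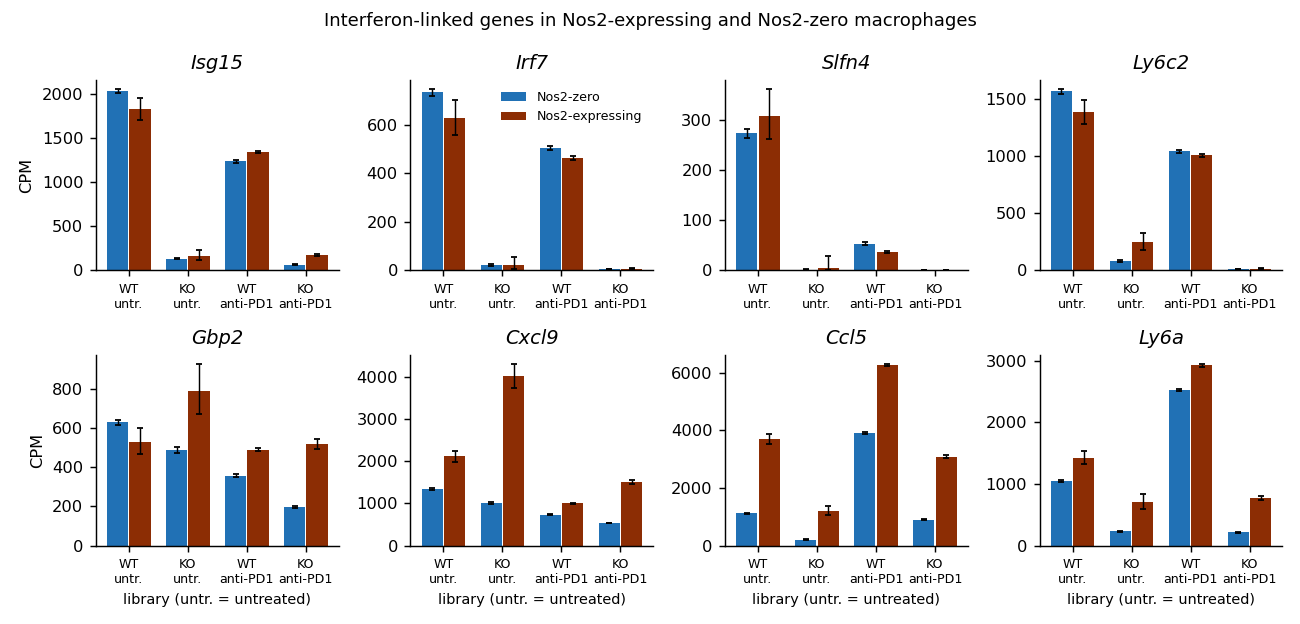
CPM of 8 interferon-linked genes in Nos2-zero (blue) and Nos2-expressing (dark red) macrophages of each library, with exact 95% Poisson intervals. In both KO libraries Isg15, Irf7, Slfn4 and Ly6c2 lie below their level in either WT library, while Gbp2, Cxcl9, Ccl5 and Ly6a are higher in members.

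Promoter windows were read for these lists because their members moved together in KO. The RefSeq table (GRCm38.p6) gives 250 bases before to 50 after each start. The windows of Isg15 (chr4:156200769-156201068, minus strand) and Gbp2 (chr3:142620413-142620712, plus strand) are shown because the genes stand for the type I and the interferon-gamma list. Capitals mark matches on either strand to TTTC, any 2 bases, TTTC, a core of the interferon-stimulated response element (ISRE), and in Gbp2 also a match to the NF-kB consensus.
Isg15: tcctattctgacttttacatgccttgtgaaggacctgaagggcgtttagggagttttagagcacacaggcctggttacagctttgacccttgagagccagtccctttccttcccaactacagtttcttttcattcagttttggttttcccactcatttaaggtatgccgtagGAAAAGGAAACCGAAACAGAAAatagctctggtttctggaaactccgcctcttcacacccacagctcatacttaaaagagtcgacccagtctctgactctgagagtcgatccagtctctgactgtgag
Gbp2: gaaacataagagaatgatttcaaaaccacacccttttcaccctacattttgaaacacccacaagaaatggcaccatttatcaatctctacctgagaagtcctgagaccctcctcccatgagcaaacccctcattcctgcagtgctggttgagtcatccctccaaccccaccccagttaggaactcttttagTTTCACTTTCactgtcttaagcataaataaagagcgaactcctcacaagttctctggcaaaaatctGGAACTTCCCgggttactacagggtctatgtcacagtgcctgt
Isg15 held 3 overlapping matches, at positions -78, -72 and -66 from the start, and Gbp2 held 1 at -59, with the NF-kB match at 7 after the start. The windows of Slfn4, Inhba and Upp1 were also read and held no match to either motif. No window was given for Nos2 or Nrg1. The ISRE-like core was in 3.99% of 27025 genes with a window, in 58.1% of the interferon-stimulated list (18 of 31 matched genes), in 44.4% of the interferon-gamma list (8 of 18) and in 29.4% of the MHC class I list (5 of 17). In the hypoxia list it was in 3.70% (1 of 27), in the Schlafen list in 42.9% (3 of 7) and in the BH4 and NADPH oxidase list in 66.7% (2 of 3). These shares describe the lists, whichever cells are compared, and say nothing on the members. The NF-kB consensus was in 9.55% of all genes, in 47.1% of the MHC class I list (8 of 17) and in 27.8% of the interferon-gamma list (5 of 18). The consensus was also in 50% of the NF-kB and Toll-like receptor list (9 of 18), 38.5% of the lysosome list (5 of 13) and 31.6% of the heat shock list (6 of 19). It was thus not particular to the interferon-gamma and MHC class I lists. The motif TTC, any 3 bases, GAA was in 9.55% of all genes, 50% of the interferon-gamma list (9 of 18) and 11.8% of the MHC class I list (2 of 17).

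Further genes set KO members apart from other KO macrophages. Among those higher in members, Cfb, complement factor B, was at 239 against 70.6 CPM, Acod1, which makes itaconate, at 191 against 84.5, and Oasl1, an interferon-induced regulator, at 10.2 against 1.45. Ccl3, an inflammatory chemokine, was lower, at 93.4 against 391 CPM, and Ccl4 had the log2 ratio -1.92. KO members thus held less of this pair of chemokines. The KO Nos2-zero macrophages had a median of 4974 UMIs against 9381 in members. Against Nos2-zero macrophages nearest in UMIs, 494 of 7610 genes (6.49%) of anti-PD1 KO were 2-fold apart in place of 861 of 10502. Of the 494, 253 were higher and 241 lower, in place of 260 and 601. With a pseudocount of 5 and all Nos2-zero macrophages, 402 were higher and 206 lower.

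In untreated WT the 53 members had a wider counting error. The log2 ratio was 1.97 (1.61 to 2.31) for Inhba, 2.38 for Procr and 2.07 for Trem1. Ptgs2, which makes prostaglandins, was at 942 against 380 CPM, with UMIs in 37 of the 53 members. Saa3, an acute-phase apolipoprotein, was at 213 against 49.7 CPM, and Areg, an EGF receptor ligand, at 92.0 against 10.3. The Saa3 UMIs lay in 7 members and the 45 Areg UMIs in 5, of which 1 held 28, so these levels came from few cells. Ccl24 was lower, at 45.0 against 375 CPM, and the mannose receptor gene Mrc1 had the log2 ratio -2.68. Untreated members thus held inflammatory transcripts as the treated ones did. For Slc7a2 the log2 ratio to Nos2-zero macrophages was 0.83 (0.01 to 1.48).

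Members also varied among themselves with their Nos2 level. In anti-PD1 WT, macrophages were divided by Nos2 UMIs into 3209 cells with 0, 654 with 1, 446 with 2, 552 with 3 to 4, 687 with 5 to 9 and 475 with 10 or more. Slc7a2 stood at 103, 197, 193, 231, 339 and 481 CPM in that order, and Inhba at 85.2, 168, 175, 292, 313 and 631. Nrg1 stood at 305, 485, 492, 511, 618 and 702 CPM, and Arg1 at 1035, 1853, 1898, 2008, 2306 and 2701. All 4 were lowest without Nos2 and highest in the cells with the most Nos2, and the cells with 1 Nos2 UMI, which the rule leaves out, were close to those with 2.

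Cx3cr1 ran the other way, at 114, 67.8, 59.0, 50.8, 50.6 and 39.3 CPM, and C1qa, a complement gene of mature macrophages, went from 4914 to 3778 with reversals between. Gpnmb, at 488, 240, 405, 260, 198 and 144 CPM, had no steady order among the low tiers. Isg15 stayed between 1232 and 1395 CPM in all tiers. The median depth went from 7671 UMIs without Nos2 to 12183 in the highest tier, and its part was not tested. When members were ranked instead by the share of their UMIs that was Nos2, in 3 groups, Inhba was at 183, 347 and 656 CPM, Slc7a2 at 242, 323 and 446, and Gpnmb at 400, 162 and 80.4 from the lowest to the highest group. Nrg1 was at 484, 602 and 741 CPM. In this ranking median depth ran the other way, at 12346, 9885.5 and 8172 UMIs, and Inhba, Slc7a2 and Nrg1 were again highest where Nos2 was highest. Arg1 differed less in this ranking, at 2117, 2361 and 2364 CPM.

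**Figure D5:**
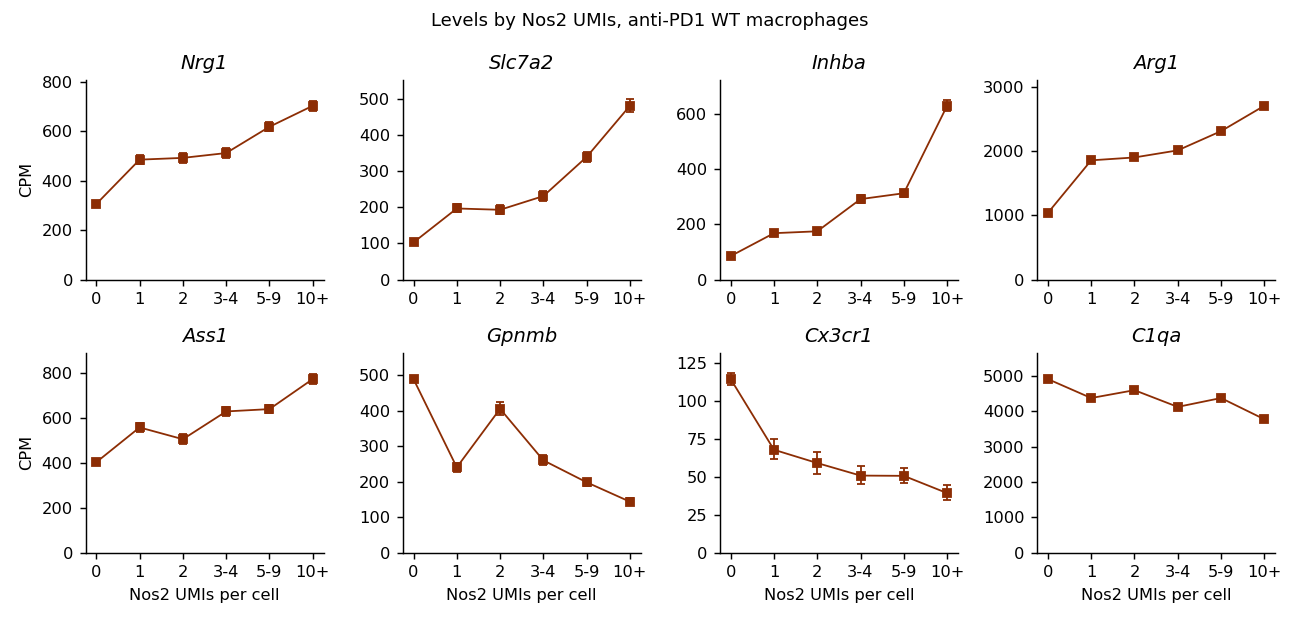
CPM of 8 genes in anti-PD1 WT macrophages grouped by Nos2 UMIs per cell, with exact 95% Poisson intervals; cells with 0 or 1 UMI are not members. Slc7a2 goes from 103 to 481 CPM and Cx3cr1 from 114 to 39.3.

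Members of anti-PD1 KO were then set beside members of anti-PD1 WT, a contrast in which genotype and library cannot be told apart. Of 10031 genes 858 (8.55%) were at least 2-fold higher in KO members and 767 (7.65%) at least 2-fold lower, in all 1625 (16.2%). The same contrast in Nos2-zero macrophages gave 10.4% and 7.56% of 11367 genes, so the share of 2-fold genes in members was near that of other macrophages. All 39 interferon-stimulated genes were lower in KO members, where 55.3% of all genes were higher, 38 of them at least 2-fold, with a median of -3.18, beside -4.26 in Nos2-zero macrophages. Slfn4 had 0 UMIs in KO and 866 in WT members, and Oas1g, which senses double-stranded RNA, 0 and 1016. Irf7 had the log2 ratio -6.03.

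Nrg1 and the arginine genes differed from each other in this contrast. Nrg1 had the log2 ratio 0.03 (-0.04 to 0.10; -0.06 with TMM scaling), beside 0.05 in Nos2-zero macrophages. Slc7a2 was higher in KO members by 1.36, Arg1 higher by 0.51, Ass1 lower (-1.97) and Gch1 lower (-0.86), beside 1.29, 0.92, -2.87 and -0.96 in Nos2-zero macrophages. The difference in each of these arginine genes therefore had the same direction in macrophages without Nos2. Il1a had the log2 ratio -2.45, Il6 -2.34 and Tnf -1.63, and inflammatory genes as a list a median of -1.15 beside -1.01 in Nos2-zero macrophages. The list of suppressive and wound-type genes had 18 of 27 higher in KO members (16 with either other scaling) and a median of 0.22, beside 0.82 in Nos2-zero macrophages. Single genes lay further apart: Retnla, a secreted protein of alternatively activated macrophages, had 648 UMIs against 0 in WT members, Mrc1 was at 537 against 53.4 CPM, the chitinase-like gene Chil3 at 707 against 31.8 and Ccl8 at 8877 against 837. Within the KO library, Retnla was at 214 CPM in members and 349 in Nos2-zero macrophages, so members were not set apart by it.

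Members of anti-PD1 WT differed from the 53 members of untreated WT at 1042 (10.6%, higher) and 1876 (19%, lower) of 9856 genes by 2-fold or more (29.6% in all), beside 9.09% and 15% in Nos2-zero macrophages. Treatment, day, library and Cell Ranger version cannot be told apart here. The counts were made with Cell Ranger 3.1.0 (untreated) and 7.2.0 (anti-PD1), and their settings for intronic reads are not given. CPM placed 35.7% of the 2-fold genes on the higher side, TMM 49.1% and DESeq2 size factors 49.2%, and either scaling moved the log2 ratios of all genes by about 0.2. Nrg1 had the log2 ratio 2.55 (2.16 to 3.0), Slc7a2 3.1 (2.47 to 3.89) and Arg1 2.44 (2.24 to 2.65), beside 2.15, 2.27 and 1.28 in Nos2-zero macrophages. These genes were thus higher in the anti-PD1 WT library than in untreated WT, in macrophages with and without Nos2. The part of the Cell Ranger version in this was not tested. Slfn4 had the log2 ratio -3.11 and interferon-stimulated genes a median of -0.90 (5 of 39 higher, against 39.2% of all genes), beside -2.37 and -1.03.

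Some of the differences between these libraries lay in genes not tied to macrophage function. Cmss1, a gene of ribosome assembly, had 114134 UMIs in anti-PD1 WT members and 1 in untreated WT members, and its log2 ratio in Nos2-zero macrophages was 9.95. The nuclear RNA Malat1 was at 2982 against 34060 CPM. Heat shock gene Hspa1a was at 11.5 CPM in anti-PD1 WT members against 1705 in untreated WT members and 1851 in untreated KO members. The cytotoxic gene Gzma was at 0.622 CPM against 100 in untreated WT members, whose NK marker sum is given above.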

How the data were processed

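The authors deposited 4 matrices of whole-number UMI counts, a gene by barcode table for each library, which carry no normalization per the file headers. Cell Ranger made them, in version 3.1.0 (untreated) or 7.2.0 (anti-PD1) per the same headers. Builds named in the submitters' processing notes are mm10 and GRCm38. Settings for intronic reads and cell calling are not given in the sources used here. The lists held 31053 and 32285 genes, and the 30406 in both were used (99.5% to 99.9% of UMIs). By library, untreated WT had 6662 barcodes with 48270410 UMIs, untreated KO 3705 with 32410040, anti-PD1 WT 9530 with 94732545 and anti-PD1 KO 8764 with 54559749.

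The rule on raw counts left 5264, 2810, 9464 and 8476 filtered cells. Counts of the cells compared were summed per library and scaled to CPM. Log2 ratios took 0.5 as pseudocount, were restricted to genes whose 2 groups summed to 50 UMIs or more, and have exact conditional binomial intervals. Levels have exact Poisson and shares exact Clopper-Pearson intervals, all 95%. Cells are not replicates, so no p-value was computed. Doublets were scored with Scrublet. The threshold it set by itself marked 0 to 3 cells in a library, so the top cells at a nominal 0.8% per 1000 barcodes were marked, and were removed only as an alternative. Genes with near-identical relatives (Gbp2b and other Gbp genes, H2-Q genes, Ifit3 and Ifit3b, Ly6c2, Ly6i and Ly6a, Hspa1a and Hspa1b, Oas1a and Oas1g, Serpina3f and Serpina3g) are uncertain, since counting could split their reads.

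The members and the 25 gene lists were chosen with earlier results of these data known. Named genes were Nos2, Nrg1, Slfn4 and the arginine list, up to 3 members of each list by the interval limit nearest to 0, and the 10 highest and lowest others by that limit. Names outside that rule, such as those shown for comparison across libraries, were chosen after their values were seen, as were the comparisons of Nos2-zero macrophages between libraries. Alternatives were other Nos2 minima, a stricter cell filter, doublets or the deepest cells removed, Nos2-zero macrophages nearest in UMIs, thinning, other pseudocounts and UMI minima, TMM (edgeR 4.0.16) and DESeq2 1.42.0 size factors (R 4.3.3), and, added after seeing the data, removal of cells with Ccr7 and of barcodes found in another library, and thinning of macrophages chosen at full depth. The ratio code was tested on simulated data. Python 3.11.15, numpy 2.4.6, scipy 1.17.1, pandas 2.3.3, scanpy 1.11.5 and matplotlib 3.10.9 were used.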

Additional observations from a re-analysis of the deposited data

Results flagged for a closer look

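Gbp2b, a guanylate-binding protein gene, had a log2 ratio of members to Nos2-zero macrophages of -1.0 in anti-PD1 WT but of 1.51 in anti-PD1 KO, opposite directions under the same contrast. Zc3h12c, a relative of the RNA-degrading regulator Regnase-1, had 0.78 in anti-PD1 WT but -0.95 in anti-PD1 KO. These differences between the libraries were not tested, and Gbp2b shares near-identical sequence with other Gbp genes.

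Nos2 was also counted in cells that the rule sets aside. Of cells with 3 or more UMIs of P2ry12, Tmem119 and Sall1 in anti-PD1 WT, 12.05% held 2 or more Nos2 UMIs (168 of 1394), against 0 of 469 in untreated WT, which allows a share of up to 0.640% by a limit of 3 counts (0.783% by the exact interval), 0.340% in untreated KO and 0.903% in anti-PD1 KO. Set against cells of that kind with 0 Nos2 UMIs, these 168 had Arg1 at 2268 against 231 CPM, Nrg1 at 449 against 67.9, Lyz2 at 13153 against 4822, Ly6c2 at 420 against 102 and P2ry12 at 94.9 against 377. Their median depth was 17421 against 12334 UMIs, and the part of doublets was not tested. The 12.05% was counted at full depth. With each cell thinned to 2000 UMIs, 378 anti-PD1 WT cells reached the same marker limit. Of these, 1 (0.265%) held 2 or more Nos2 UMIs, against 11.6% of macrophages and 0.224% of T cells.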

How the results depend on the processing

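No paired analysis was possible because each group had 1 library and the labels carry no replicate numbers. The share of members depended on the Nos2 threshold. In untreated WT, untreated KO, anti-PD1 WT and anti-PD1 KO it was 5.82%, 3.42%, 46.7% and 9.80% with 1 or more Nos2 UMIs, 0.576%, 0.683%, 19.3% and 2.69% with 5 or more, and 0.768%, 0.289%, 11.6% and 1.92% after thinning, or 0.952%, 0.357%, 13.6% and 2.58% with the macrophages chosen at full depth, an alternative chosen after seeing the data. With 3 or more it was 4.56% in anti-PD1 KO, 28.5% in anti-PD1 WT and 1.73% in untreated WT. Anti-PD1 WT had the highest share in each of these settings. The number of 2-fold genes between members and Nos2-zero macrophages depended on the UMI minimum. With 10 UMIs it was 977 in anti-PD1 WT, 1895 in anti-PD1 KO and 2085 in untreated WT, and with 200 UMIs 151, 409 and 319. Thinning gave 190 in anti-PD1 WT, Nos2-zero macrophages nearest in UMIs 494 in anti-PD1 KO and 135 in untreated WT, and a pseudocount of 5 gave 2252 in untreated WT. Members of anti-PD1 WT against untreated WT gave 1677 with 200 UMIs and 4395 with a pseudocount of 5, and members of anti-PD1 KO against WT 2728 with 10 and 1057 with 200 UMIs. Stmn1, a cell cycle gene, changed sign in untreated WT when Scrublet doublets (-0.43) or the cells above the 95th UMI percentile (-0.67) were removed, and with it the contrast of anti-PD1 WT with untreated WT members (0.006614 and 0.12). The causes were not tested. In untreated WT the median of chemokines, -0.52 as reported, was 0.24 after thinning, and that of tissue macrophage genes, -0.10, was 0.32 against Nos2-zero macrophages nearest in UMIs. In anti-PD1 WT against untreated WT members the lipid median of 0.56 was -0.63 with a pseudocount of 5. The stricter cell filter and a minimum of 5 Nos2 UMIs were not run for untreated WT, where they left 49 and 10 members. With 53 Nos2-zero macrophages nearest in UMIs in place of 1636, Nrg1 of untreated WT went from 0.56 to -0.49 and Arg1 from -0.03 to 0.76. The 489249 UMIs of the 53 untreated WT members limit what can be seen there in low genes.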
